A study of Sus scrofa with 8 samples.

Results

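ATP6V1E1, CTSD and NCOA4 encode a proton pump subunit, a lysosomal protease and the receptor that sends ferritin to the lysosome. They were picked by name from the deposited table of values per pig, in which each name occurs in a single row, and make up 3 of its 458 genes. That table holds only genes that the authors had called different between the breeds in the same 8 pigs. A breed difference in each of the 3 genes was therefore fixed by the table, and the tests below describe how far the pigs lie apart rather than give independent evidence. The tissue was back fat from under the skin, taken from 4 pigs of the Alentejano breed (AL) and 4 of the Bísaro breed (BI), all purebred castrated males kept free range on commercial feed under shared conditions (carcass weight 150 kg in the labels). The paper instead gives about 150 kg as the body weight at slaughter. The labels give no age, and the AL pigs had been longer on trial on average, so that breed and time on trial cannot be told apart. One stranded mRNA library was sequenced per pig, and pigs are named by breed and by the number in their label (AL 44, 49, 52 and 63; BI 25, 34, 36 and 37).

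The lysosome is the acidic compartment in which cells digest their own components and material taken up from outside. Its acidity is set by the vacuolar ATPase, a rotary pump whose cytosolic V1 sector splits ATP and whose membrane V0 sector passes protons, and ATP6V1E1 forms part of the stalk that holds the sectors together. Cathepsin D, the product of CTSD, is an aspartic protease that is made as an inactive precursor, sorted to the lysosome and activated by low pH. NCOA4 binds ferritin, the iron storage protein, and hands it to the autophagosome, so that iron is released once the lysosome degrades the ferritin shell. Fat tissue holds adipocytes together with macrophages, endothelial cells and stromal cells, all of which have lysosomes. In RNA from whole tissue, fewer cells of a type and less RNA per cell cannot be told apart.

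The 3 genes lie on different chromosomes of Sscrofa11.1, all on the minus strand. ATP6V1E1 (ENSSSCG00000000767) spans chr5:69752644-69772038 in 9 exons, CTSD (ENSSSCG00000040793) spans chr2:1188548-1197642 in 9 exons, and NCOA4 (ENSSSCG00000010399) spans chr14:90505614-90531302 in 10 exons, counted as the union of 13 RefSeq transcripts. No other gene of the 458 that could be placed lay within 200 kb of any of them. The 250 bases before the outermost annotated start of each gene, read 5′ to 3′ on the gene's strand from that genome, are shown because CTSD and NCOA4 shared a direction between the breeds and ATP6V1E1 had the opposite one. Capitals mark the GC box GGGCGG, a common promoter motif, on either strand.
ATP6V1E1 (chr5:69772039-69772288): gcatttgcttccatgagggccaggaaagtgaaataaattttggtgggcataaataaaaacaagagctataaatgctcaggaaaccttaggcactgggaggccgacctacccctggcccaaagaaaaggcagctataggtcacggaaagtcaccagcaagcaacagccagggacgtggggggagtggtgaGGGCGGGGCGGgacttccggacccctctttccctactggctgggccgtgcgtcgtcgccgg
CTSD (chr2:1197643-1197892): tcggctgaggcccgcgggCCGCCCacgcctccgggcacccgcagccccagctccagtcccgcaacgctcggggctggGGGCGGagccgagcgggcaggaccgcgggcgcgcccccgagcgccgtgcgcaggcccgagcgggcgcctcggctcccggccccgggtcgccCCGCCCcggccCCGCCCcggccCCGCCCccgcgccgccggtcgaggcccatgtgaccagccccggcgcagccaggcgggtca
NCOA4 (chr14:90531303-90531552): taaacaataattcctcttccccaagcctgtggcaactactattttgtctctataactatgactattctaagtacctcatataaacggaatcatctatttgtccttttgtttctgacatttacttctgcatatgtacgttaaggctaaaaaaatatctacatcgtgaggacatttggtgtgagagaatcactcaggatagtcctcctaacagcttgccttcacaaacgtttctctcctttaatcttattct
The windows differed in base composition, with 56.4% G and C for ATP6V1E1, 85.2% for CTSD and 36% for NCOA4, against a median of 57.6% over 19559 windows placed in the same way before other protein-coding genes. The GC box occurred 2 times before ATP6V1E1, as overlapping copies, 5 times before CTSD and 0 times before NCOA4, and 45.9% of all windows of this length hold at least 1. The letters CACGTG, the core of the element read by the lysosomal transcription factor TFEB, were in none of the 3 windows, and 6.39% of all windows hold them. These matches and absences describe the letters of the windows only.

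Values are normalized counts, meaning reads per gene corrected for the sequencing depth of the pig by its DESeq2 size factor. ATP6V1E1 was about 4 times as abundant in BI as in AL, whereas CTSD and NCOA4 were nearly 2 times as abundant in AL. All 3 genes separated the breeds completely: no AL pig had a value within the range of the BI pigs. This held for 79.5% of the 458 genes of the table, with 48.3% separated and higher in AL and 31.2% separated and higher in BI, so that separation by itself does not set these genes apart. The split by direction depended on scaling: with the 2 rescalings described further on, 102 and 60 separated genes were higher in AL and 171 and 176 in BI, in place of 221 and 143.

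**Figure D1:**
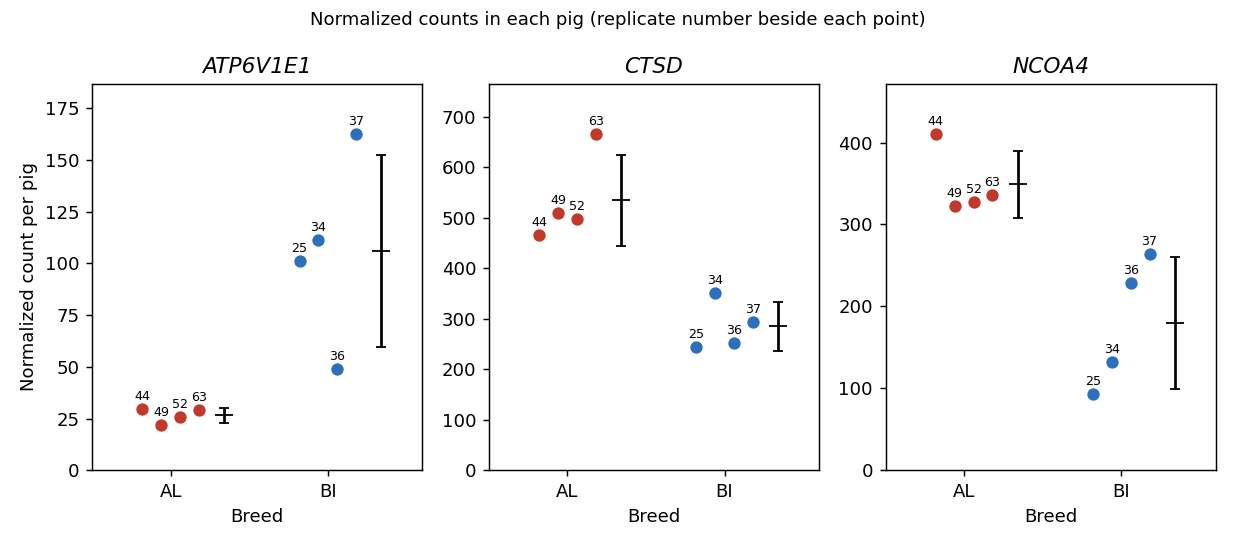
Normalized counts of ATP6V1E1, CTSD and NCOA4 (vertical axes from 0) in each AL pig (red) and BI pig (blue), with the replicate number beside each point and the mean ± SD of 4 pigs beside each group. The AL pigs lie between 21.8 and 29.6 for ATP6V1E1, below every BI pig, and above every BI pig for CTSD and NCOA4.

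The ATP6V1E1 counts were 29.6, 21.8, 25.8 and 29.2 in AL replicates 44, 49, 52 and 63, and 101, 111, 49.1 and 162 in BI replicates 25, 34, 36 and 37. The AL pigs were low and close together, whereas the BI pigs spread over a 3.31-fold range with replicate 36 nearest to AL. AL averaged 26.6 ± 3.65 and BI 106 ± 46.5 (SD, n = 4 pigs each), so that the BI mean was 3.98 times the AL mean. On the scale of log2(normalized count + 1), on which positive differences are higher in AL, the log2 fold change (log2 FC) was −1.84 ± 0.37 (standard error). Exact permutation of the pigs between the breeds gave a two-sided p of 0.0286 for ATP6V1E1, or 0.0359 after Benjamini-Hochberg adjustment over the 458 genes. A p of 0.0286 is the smallest that 4 pigs against 4 can give. By the whole steps of the deposited values, taken as reads, between 20 and 24 reads stood behind each AL value and between 52 and 195 behind each BI value. The coefficient of variation among AL pigs was 13.7%, less than the 21.4% that counting error alone would give if each step is 1 read, and among BI pigs it was 43.9% against 8.64%. Without BI replicate 37 the log2 FC was −1.60 and without BI replicate 36 it was −2.17.

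For CTSD, the counts were 465, 510, 497 and 665 in AL replicates 44, 49, 52 and 63, and 244, 350, 252 and 292 in BI replicates 25, 34, 36 and 37. AL replicate 63 was the highest pig, and the lowest AL pig exceeded the highest BI pig by 0.41 on the log2 scale. AL averaged 534 ± 89.4 and BI 285 ± 48.6 (SD, n = 4 pigs each), giving 0.91 ± 0.16 (standard error) as log2 FC, with an exact permutation p of 0.0286 (adjusted 0.0359). The AL mean was 1.88 times the BI mean. CTSD had the lowest SD of the 3 genes on the log2 scale pooled over the breeds, 0.23 against a median of 0.45 over the 458 genes. This came from BI, where its SD was 0.24 against 0.71 for ATP6V1E1 and 0.69 for NCOA4. Within AL its SD of 0.23 was the largest of the 3, against 0.20 for ATP6V1E1 and 0.16 for NCOA4. The coefficient of variation of CTSD was 16.7% in AL and 17.1% in BI, above the 4.74% and 5.29% of counting error, with 267 to 562 reads behind each value.

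The NCOA4 counts were 410, 322, 327 and 336 in AL replicates 44, 49, 52 and 63, and 93.3, 133, 229 and 264 in BI replicates 25, 34, 36 and 37. Within BI, replicates 25 and 34 were low and replicates 36 and 37 had nearer to AL values, a 2.83-fold range. AL averaged 349 ± 41.5 and BI 180 ± 80.0 (SD, n = 4 pigs each), and the AL mean was 1.94 times the BI mean. This gave 1.06 ± 0.36 (standard error) as log2 FC, again with an exact permutation p of 0.0286 (adjusted 0.0359). The gap between the breeds was the narrowest of the 3 genes, 0.28 on the log2 scale between BI replicate 37 and AL replicate 49. Between 122 and 355 reads stood behind each value, and the coefficient of variation was 11.9% in AL and 44.5% in BI, against 5.91% and 6.81% from counting. Leaving out BI replicate 25 gave a log2 FC of 0.79, the lowest value for NCOA4 over the 8 fits that each omitted 1 pig.

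Ratios within a pig do not depend on the scaling between libraries, and they give the difference between genes but not the direction of either gene. The CTSD count was 15.7, 23.4, 19.2 and 22.8 times that of ATP6V1E1 in AL replicates 44, 49, 52 and 63, and 2.42, 3.15, 5.13 and 1.80 times in BI replicates 25, 34, 36 and 37. The NCOA4 count was 11.5 to 14.8 times that of ATP6V1E1 in AL and 0.924 to 4.65 times in BI. These ratios are given without a test, because genes separated in opposite directions must also separate in their ratio. CTSD and NCOA4 were compared with each other by the breed difference of their log2 ratio, which was −0.16 (standard error 0.39, two-sided exact permutation p = 0.83, higher in 2 of 4 BI pigs than in any AL pig). Shifts from −1.21 to 0.84 were not rejected by that test. With 4 pigs a breed, differences between the log2 FC of the 2 genes within that interval are therefore compatible with these values. The ratio of CTSD to NCOA4 lay between 1.13 and 1.98 in AL. In BI it was 2.61 and 2.64 in replicates 25 and 34 but 1.10 and 1.11 in replicates 36 and 37, so that the BI pigs lay on both sides of the AL range.

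**Figure D2:**
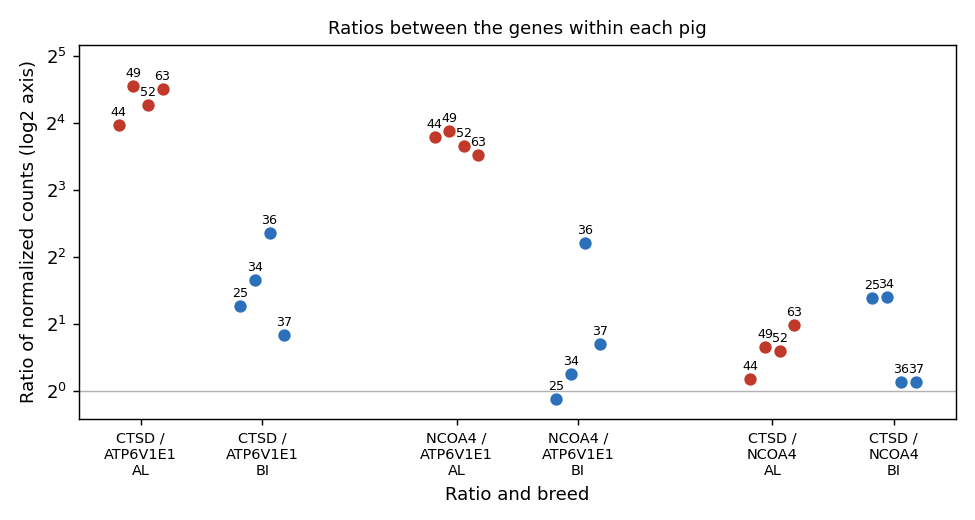
Ratio of normalized counts between pairs of the 3 genes within each pig (log2 axis), AL in red and BI in blue, with replicate numbers. CTSD over ATP6V1E1 lies between 15.7 and 23.4 in AL and between 1.80 and 5.13 in BI, whereas CTSD over NCOA4 overlaps between the breeds.

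The size factors ran from 0.675 to 1.10 in AL and from 1.06 to 1.46 in BI in overlapping ranges, with an exact two-sided permutation p of 0.0571 for the difference. When the values were rescaled by a median of ratios over the 458 genes, the median over all of them of the log2 FC fell by 0.51, and with an upper quartile by 0.65. ATP6V1E1 then had log2 FC of −2.35 and −2.47 and its breeds stayed apart. CTSD fell to 0.39 and 0.26 (exact permutation p = 0.114 and 0.171) and NCOA4 to 0.55 and 0.42 (p = 0.114 and 0.200), each with overlapping breeds. Both rescalings rest on the called genes of the table alone, of which 57.4% were higher in AL and 42.6% in BI, overlapping or not, and both centre that unequal set.

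**Figure D3:**
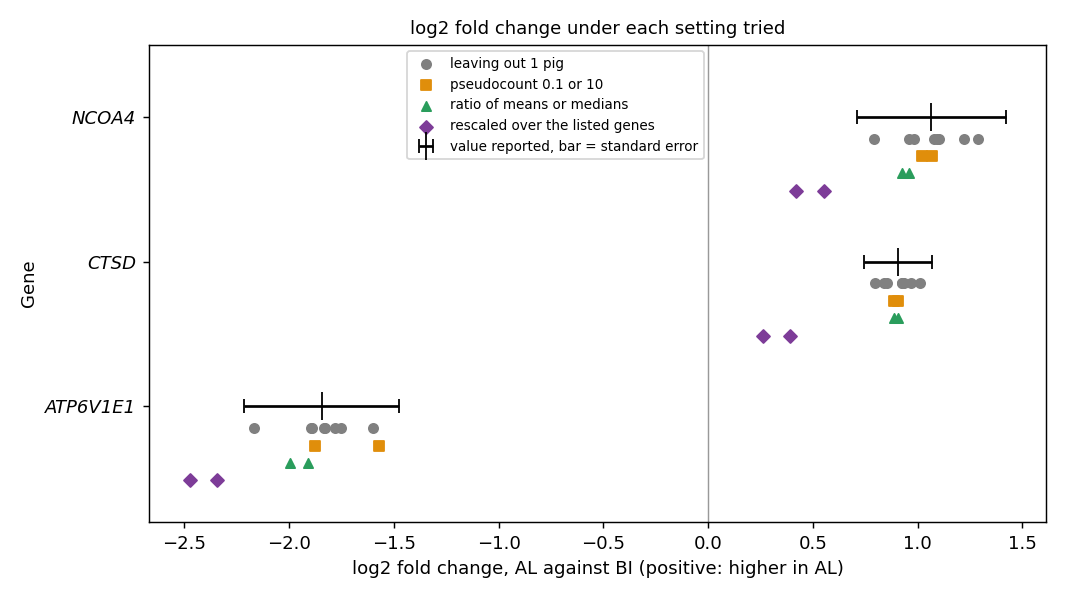
log2 FC of AL against BI (horizontal axis) for the 3 genes as reported (black, bar = standard error) and under each other setting (symbols in the key). ATP6V1E1 stays negative and CTSD and NCOA4 stay positive throughout, and the rescaled values of CTSD (0.26 and 0.39) and NCOA4 (0.42 and 0.55) come closest to 0.

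By the size of the log2 FC, ATP6V1E1 had rank 51 of the 458 genes, NCOA4 rank 291 and CTSD rank 365. Mean counts over the 8 pigs were 66.3 for ATP6V1E1, 264 for NCOA4 and 409 for CTSD, which places them at ranks 2186, 1062 and 829 among the 10710 genes for which the authors deposited a mean. Per kilobase of annotated exon, the mean level of CTSD was 265 normalized counts in AL and 141 in BI, that of NCOA4 57.9 and 29.8, and that of ATP6V1E1 19.3 and 77.1. On this scale ATP6V1E1 was the lowest of the 3 genes in AL, whereas in BI the lowest was NCOA4.

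**Figure D4:**
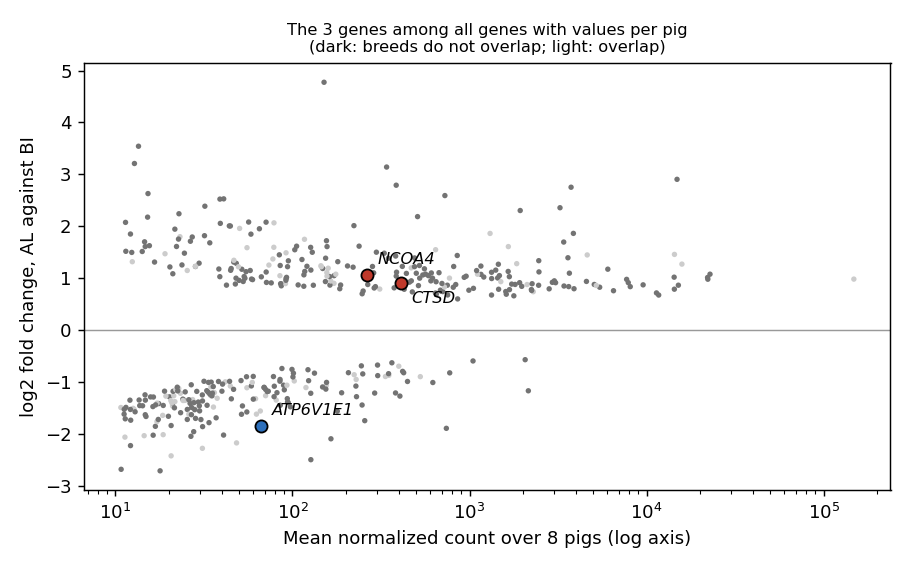
Mean normalized count over 8 pigs (horizontal log axis) against the log2 FC of AL over BI (vertical axis) for the 458 genes, dark where the breeds do not overlap and light where they do. ATP6V1E1 (66.3, −1.84) lies among genes higher in BI, and CTSD (409, 0.91) and NCOA4 (264, 1.06) lie within the band of genes higher in AL.

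All 3 genes end close to a gene on the opposite strand in the RefSeq annotation. The 3′ end of NCOA4 overlaps 521 exonic bases of a plus-strand gene annotated as Tim23, a subunit of the mitochondrial protein import channel. The ends of ATP6V1E1 and of the plus-strand gene annotated as CECR2 are 4914 bases apart, and those of CTSD and of a plus-strand gene annotated as basic proline-rich protein-like 3727 bases. An opposite-strand gene that overlapped or ended within 5 kb was found for 69.7% of the table's genes that could be placed, and, over the authors' full table, for 91.2% of the tenth with the highest mean counts against 49.2% of the rest. The strand setting of the counting is not given in the sources used here, so that reads of a gene and of its opposite-strand neighbour cannot be told apart with certainty, and their part in these differences was not tested.

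The other genes of the pathway were taken from 11 textbook lists on the proton pump, the lysosome, autophagy and iron handling. Of 236 listed genes, 163 were in the authors' full table, which carries no values per pig, and 17 were among the 458. These are 10.4% of the listed genes in the full table, against 4.28% of all its genes, a share from which nothing is read, because the lists were chosen with results of these pigs known. Besides the 3 genes described above, 10 were higher in AL and 4 in BI, with 11 (78.6%) separating the breeds, close to the 79.5% of the whole table. Their median log2 FC was 0.96, against 0.83 over the 458 genes.

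**Figure D5:**
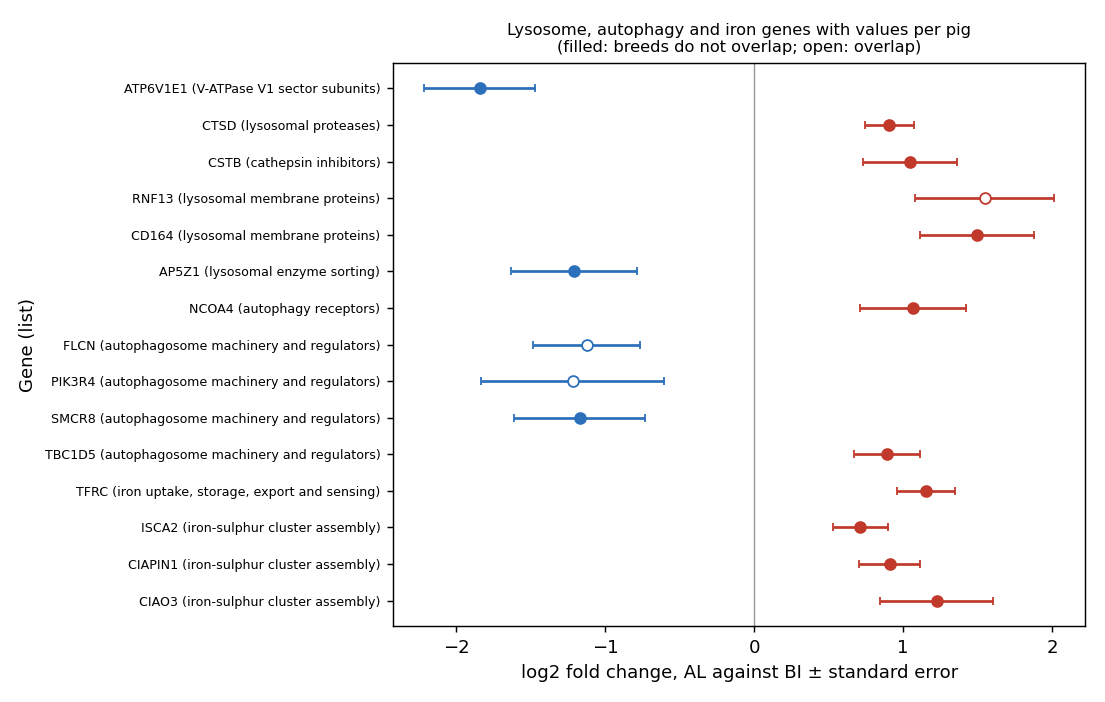
log2 FC of AL against BI with its standard error (horizontal axis) for 15 of the 17 listed lysosome, autophagy and iron genes with values per pig, filled where the breeds do not overlap and open where they do. ATP6V1E1 has the largest value towards BI (−1.84), and CTSD, CSTB, NCOA4, TFRC, ISCA2, CIAPIN1 and CIAO3 are among those to the right of 0.

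ATP6V1E1 was the only one of 25 pump subunit and accessory genes with values per pig. For 12 of them the authors' full table gives a mean, and among the V1 sector genes it is 66.3 for ATP6V1E1, 57.8 for ATP6V1C1 and 980 for ATP6V1C2, the last of these encoding alternative forms of subunit C, another part of the stalk region. Per kilobase of exon the authors' means were 48.2, 30.0 and 347, respectively. ATP6V1B2, part of the head that binds ATP, had an authors' mean of 4.06 and ATP6V1H, a regulatory subunit, 7.56. ATP6V1C2 is one of 17 listed genes placed on the genome with a mean of at least 500, of which 15 have an opposite-strand gene nearby, against 39 of 106 placed listed genes with a mean under 50.

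CTSD was the only one of 18 listed lysosomal proteases with values per pig, and its authors' mean per kilobase of exon, 203, exceeded those of CTSB (79.8) and CTSZ (149) and was below that of CTSW (1098), which encode other cathepsins. Each of these genes has an opposite-strand gene nearby, whose part in the means was not tested. The cathepsin inhibitor gene CSTB, whose product blocks cysteine cathepsins, was also higher in AL, with 230, 251, 217 and 211 counts in AL replicates 44, 49, 52 and 63 and 58.1, 136, 155 and 116 in BI replicates 25, 34, 36 and 37 (log2 FC 1.05, standard error 0.32). CD164, a sialomucin of endosomes and lysosomes, had low counts of 18.5 ± 4.86 in AL against 6.21 ± 2.65 in BI (SD, n = 4 pigs each). The breeds overlapped in neither CSTB nor CD164, and RNF13, an endosomal and lysosomal ubiquitin ligase (log2 FC 1.55), was a listed lysosomal gene in which they did. AP5Z1, a subunit of the adaptor complex on late endosomes, was higher in BI, with 80.0 to 135 counts in AL and 157 to 532 in BI (log2 FC −1.21).

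NCOA4 was the only listed autophagy receptor with values per pig. Of the 48 genes of autophagosome machinery and its regulators, 4 had values per pig and 3 of these were higher in BI, 1 of them without overlap. Of the 458 genes, 42.6% were higher in BI, and 31.2% were higher in BI without overlap. SMCR8, a partner of C9orf72 in an autophagy regulating complex, had 975 to 1421 counts in AL and 1468 to 5324 in BI without overlap (log2 FC −1.17). FLCN, the folliculin gene, and PIK3R4, the regulatory subunit of the VPS34 lipid kinase, had log2 FC of −1.13 and −1.22 with overlapping breeds. TBC1D5, a GTPase activating protein of the retromer pathway, was higher in AL without overlap (log2 FC 0.89). Among the iron genes, TFRC, the transferrin receptor that brings iron into the cell, had 191, 169, 134 and 209 counts in AL replicates 44, 49, 52 and 63 and 71.9, 61.8, 98.3 and 81.7 in BI replicates 25, 34, 36 and 37. All AL pigs lay above all BI pigs for TFRC, with a log2 FC of 1.16 ± 0.20 (standard error). It was the only gene with values per pig among 24 listed for iron uptake, storage, export and sensing. Of 21 listed iron-sulphur cluster assembly genes, the 3 with values per pig, ISCA2, CIAPIN1 and CIAO3, were higher in AL without overlap. Their log2 FC were 0.71, 0.91 and 1.22. Of the 458 genes, 48.3% were separated and higher in AL. Ferritin, the cargo of NCOA4, is represented only by its light chain gene FTL, through an authors' mean of 262 and no values per pig. No other ferritin chain is among the listed genes with an authors' mean.

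The genes whose profile over the 8 pigs was most like that of each gene were found by the root mean square difference of log2 values, each centred on its own mean, among 266 other named genes with a mean of at least 50 counts. For NCOA4 the nearest was CDC26, a subunit of the anaphase-promoting complex, with a difference of 0.077. CDC26 had 452, 361, 330 and 388 counts in AL replicates 44, 49, 52 and 63 and 94.1, 153, 234 and 287 in BI replicates 25, 34, 36 and 37, the same order among the BI pigs as NCOA4. TMCO6 and the cochaperone gene DNAJA4 followed with 0.14 and 0.15. For CTSD the nearest were FBXO2, which encodes a ubiquitin ligase subunit that recognizes glycoproteins, the annexin gene ANXA2 and the rhomboid family gene RHBDL1, with 0.17, 0.17 and 0.18. ATP6V1E1 had no neighbour as close, with ZSWIM4 at 0.38, DIDO1 at 0.42 and the sphingomyelinase gene SMPD4 at 0.42. CTSD and NCOA4 differed from each other by 0.49, which put NCOA4 at rank 136 of the 266 genes compared with CTSD.

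The tissue label was checked against cell type markers. Of 16 adipocyte markers 15 were in the authors' full table, with means from 10.9 for PPARG to 1567 for PLIN1, the main protein coating the lipid droplet. FABP4, LEP and CEBPA had values per pig, and their summed level was 1080 to 1501 in AL and 523 to 755 in BI. FABP4 made up most of that sum (909 ± 104 in AL and 436 ± 142 in BI, SD, n = 4 pigs each), and the breeds overlapped for LEP and CEBPA. Macrophages are rich in cathepsin D, but of 18 macrophage markers only SPP1 had values per pig, with 58.4 to 133 counts in AL and 3.82 to 38.5 in BI. The authors' means of the 12 macrophage markers in the full table ran from 3.87 to 1385, with a median of 34.2. CD68 and CD163 had 50.6 and 4.25, whereas ITGAM had 262 and CSF1R had 1385. ITGAM and CSF1R, like PLIN1, have an opposite-strand gene nearby, whereas CD68, CD163 and PPARG have none. The part of such neighbours in these means was not tested. The 3 endothelial markers with values summed to 2182 to 3642 counts in AL and 1386 to 1982 in BI. EGFL7 made up most of that sum (2937 ± 605 in AL and 1578 ± 308 in BI, SD, n = 4 pigs each). The other endothelial markers with values, TIE1 and CLEC14A, were higher in BI. Their means were 13.9 and 16.5 in AL against 38.9 and 37.1 in BI. MYH7, the single skeletal muscle marker with values, had 0.907 to 9.30 counts in AL and 4.72 to 40.5 in BI. Markers have values per pig only where the authors had called them, so that a breed difference in the markers with such values was fixed by the table. The other markers of each list have no values per pig. The part of these markers in the differences of ATP6V1E1, CTSD and NCOA4 was not tested.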

How the data were processed

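Per the labels and the paper's methods, the authors trimmed the reads with Trim Galore 0.5.0, aligned them to Sscrofa11.1 with HISAT2 2.1.0 and counted them per gene with HTSeq 0.11.1. The signal values deposited per pig are normalized counts (reads per gene over the DESeq2 size factor), and a second deposited table gives the mean of this signal for 10710 genes, of which 83.6% had a symbol. Both deposited tables also hold the authors' log2 fold changes with standard errors, a score (the fold change divided by its error) and p-values, none of which was used. In each pig 100% of the deposited values were whole multiples of 1 step within a tolerance of 0.05 of a step, and each step was taken as 1 read. In 5 of the 8 pigs too few low values were present to check that, so the reads, counting errors and size factors given are estimates. Between 359708 and 883622 such reads per pig fell on the 458 genes. Counting error and differences between pigs both enter the SD, and nothing says whether pigs shared litters. The breeds were compared on log2(normalized count + 1) by exact permutation of the breed labels (two-sided, 70 splits). Genes named are the 3 genes, listed genes with values per pig, marker genes by list and the 3 nearest profiles. Of the listed genes, 2 with values per pig enter the counts but are not reported here by name. The members and lists were chosen with earlier results of these data known. Alternatives were other pseudocounts (0.1 and 10), rescalings over the 458 genes, breed means or medians, a minimum mean of 50 counts, limma 3.58.1 and leaving out each pig. The scripts were tested on simulated data. Sequences and positions come from RefSeq on Sscrofa11.1, whereas the counting used Ensembl models. Python 3.11.15, NumPy 2.4.6, pandas 2.3.3, SciPy 1.17.1, Matplotlib 3.10.9 and R 4.3.3 were used.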

Additional observations from a re-analysis of the deposited data

Results flagged for a closer look

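AL replicate 44 lay apart from the other AL pigs for NCOA4, with 410 normalized counts against 322 to 336, and the gap to its nearest neighbour made up 0.841 of the range of the 4 AL pigs. A gap of this relative size appears by chance in about 1 of 20 groups, and 6 groups (3 genes in 2 breeds) were examined. Without that pig the log2 FC of NCOA4 was 0.98.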

How the results depend on the processing

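ATP6V1E1 kept its direction and its side of the threshold under each alternative with a test, with log2 FC from −2.47 to −1.57. Rescaling by the median of ratios and by the upper quartile over the 458 genes took CTSD to 0.39 and 0.26 and NCOA4 to 0.55 and 0.42, past the threshold in neither case, through the downward shift of all these genes. The same rescalings left 102 and 60 separated genes higher in AL in place of 221, against 171 and 176 higher in BI in place of 143, so that most separated genes were then higher in BI. In addition, a minimum mean of 50 counts kept 295 of the 458 genes. It left 178 separated genes higher in AL in place of 221, and 65 higher in BI in place of 143, so that the BI count fell more. Over the 8 fits that each omitted 1 pig, log2 FC values ran from −2.17 to −1.60 for ATP6V1E1, from 0.80 to 1.01 for CTSD and from 0.79 to 1.29 for NCOA4, with no overlap of the breeds, and the difference between CTSD and NCOA4 ranged from −0.37 to 0.05. These are values without a test. In limma over the 458 genes the adjusted p was 0.00356 for ATP6V1E1, 0.00751 for CTSD and 0.0113 for NCOA4, but limma called 455 of these preselected genes. The planned test on recovered reads was not run, because in 5 of the 8 pigs fewer low values were available than the check of whole reads required. No paired analysis was possible because the AL and BI pigs were different animals and the labels give no pairing between them.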
